A study of Mus with 6 samples.

Results

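Chemokine, interleukin, colony-stimulating factor and tumor necrosis factor (TNF) family genes, with their receptors, were followed in mouse chondrocytes with a conditional deletion of Sirt6. They were chosen by symbol. Each row of the deposited count table was named from its position, and a gene was taken where its symbol begins with Ccl, Cxcl, Cxcr, Ackr, Tnfsf or Tnfrsf, with Ccr or Il and a number, or is one of Cx3cl1, Tnf, Csf1 to Csf3, Csf1r, a Csf2r gene, Lif, Lifr, Osmr, Clcf1, Cntfr or a Crlf gene. The rule itself did not use any measured value, but it was set with earlier results of these data known. It found 47 rows, of which 31 lay in the parts of the table where a row's count and its label belong together, and these 31 of 11659 genes are described. The other 16, which include the rows labelled Il15, Il6st, Osmr and Il18bp, were left out because their counts may belong to another gene. No chemokine receptor was among the 31. Gene symbols that the rule covers and that are not listed here were not analysed.

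RNA was measured by sequencing in 6 samples of knee cartilage chondrocytes from C57BL/6J mice aged 12 weeks, 3 of wild-type (WT) animals and 3 of animals with a conditional deletion of Sirt6 (Sirt6 cKO). The study's Sirt6 cKO mice carry Sirt6 flox/flox alleles and the Col2a1-CreERT2 transgene, a tamoxifen-dependent Cre recombinase under the promoter of the type II collagen gene, so deletion is limited to cells that have used that promoter. The strain is as labelled, and the methods give the age and say that the study's mice were male. They give a tamoxifen schedule for the osteoarthritis models and none for the sequenced mice in particular, and the controls are labelled wild type, so allele, transgene and tamoxifen cannot be told apart from loss of Sirt6. The study describes its primary chondrocytes as first-passage cultures after collagenase digestion, whereas the labels describe tissue frozen on dry ice.

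Cytokines are secreted or membrane-bound proteins that carry signals between cells. Chemokines attract leukocytes through receptors coupled to G proteins, most interleukins and the gp130 family act through Janus kinases and STAT proteins, and the TNF family acts through TRAF adaptors on NF-kB and cell death. In cartilage they are known as part of the secretory output of stressed and senescent chondrocytes, and as signals that draw monocytes and neutrophils into the joint. No sequence of these genes was at hand, so none is printed.

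Total counts lay between 25726958 and 30156935 per sample. Sirt6 was lower in the Sirt6 cKO samples, with 660 to 1056 raw counts against 9963 to 10943 in WT. WT replicate 1 stood apart from the other WT samples, with correlations across genes of 0.972 and 0.974 against 0.996 between WT replicates 2 and 3. Of the defining chondrocyte markers, Col2a1 and Acan were not analysed here. The 5 chondrocyte markers that could be used of a list of 15, Sox9, Comp, Col11a1, Ucma and Col9a3, summed to 5739 to 6257 normalized counts in WT and to 11300 to 14160 in Sirt6 cKO samples. They did not move alike, since Ucma, Col11a1 and Comp were called higher, Sox9 had a log2 fold change of 0.62 that was short of 2-fold, and Col9a3 had one of -0.53 that did not pass (adjusted p = 0.0756 in edgeR's test). Most of the sum in both genotypes was Sox9, with a mean of 5520 normalized counts in WT and 8486 in Sirt6 cKO samples. Mean normalized counts of Ucma were 4.9 in WT and 239.7 in Sirt6 cKO samples, and those of Comp were 19.4 and 225.1. For Col11a1 they were 201.5 and 3232. Counts were normalized by TMM and tested with the quasi-likelihood method of edgeR, and each p was adjusted after Benjamini and Hochberg over all tested genes. A gene is called higher or lower where the adjusted p is below 0.05 and the level differs by more than 2-fold. Each p sets the genotype difference against the spread within these groups of 3 samples, an estimate that edgeR moderates with information from all genes. For a single gene the smallest two-sided p that an exact permutation test can give is 0.1.

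The chemokines Ccl2, Ccl8 and Cxcl10, the co-stimulatory pair Tnfrsf9 and Tnfsf9, the IL-1 antagonist and the receptor chains Il12rb1 and Il4ra were lower in Sirt6 cKO chondrocytes, and no cytokine family gene was called higher. Of the 31 genes 30 had enough counts for the test. Of these 30, 8 were called lower, which is 26.7%, against 7.15% of the 11246 tested genes of the series. Of the 8, Tnfrsf9, Ccl8 and Cxcl10 fell below 10 counts in some Sirt6 cKO samples and had enough counts for the test only through WT samples. With at least 10 counts required in every sample, 5 of 26 tested cytokine family genes were called lower, against 745 of 10817 genes. Of the 7 tested chemokines, 3 were called lower. None was called higher, against 8.72% of all tested genes. At the adjusted p alone, with no threshold of fold, 2 were higher, with Csf1 among them, and 12 were lower, the additional genes being Il1rl1, Il34, Clcf1 and Tnfrsf22. These are 6.67% and 40.0% of the 30 genes, against 22.5% and 24.3% of all tested genes. Counted in either direction, 14 of 30 genes passed the adjusted p, 46.7%, which is close to the background of 46.8%. The median log2 fold change of the 30 genes was -0.45, and that of all tested genes was 0.00. In 14 genes all Sirt6 cKO samples lay below all WT samples, 46.7% against a background of 30.6%, and in 3 genes they lay above, against 30.2% of all tested genes. In either direction these were 17 genes, 56.7% against 60.9%. DESeq2 and limma-voom also called 8 genes lower and 0 higher. In bulk RNA, fewer cells of a type and less RNA per cell cannot be told apart.

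**Figure D1:**
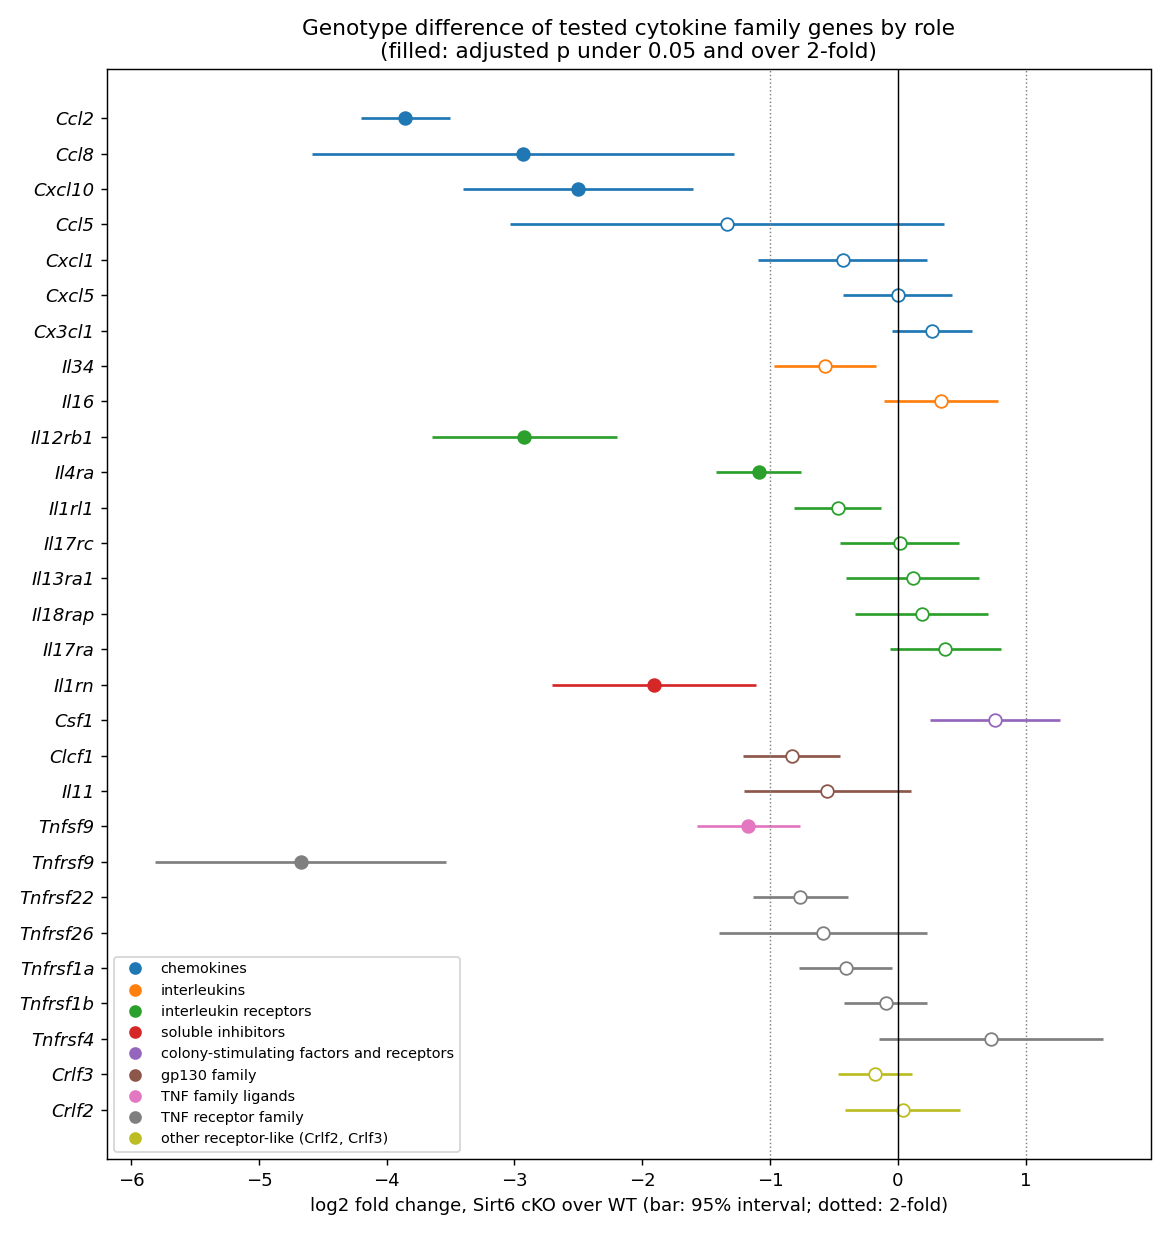
Log2 fold change (Sirt6 cKO over WT) of the tested cytokine family genes described here, grouped by role in color, with 95% intervals from edgeR's quasi-likelihood fit. Filled points are the 8 genes past both thresholds, all to the left of the dotted line at a 2-fold decrease, and no filled point lies on the right.

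Ccl2, the monocyte attractant MCP-1, had the smallest adjusted p of all 31 genes. Its normalized counts were 4463, 5174 and 4439 in the 3 WT samples and 318, 296 and 359 in the 3 Sirt6 cKO samples. The 2 sets of samples were far apart and each varied little. The mean was 4692 ± 418 in WT against 324 ± 31.8 in Sirt6 cKO (SD, n = 3 each), a 14.5-fold lower level with a log2 fold change of -3.85 (SE 0.15, adjusted p = 2.49e-06, edgeR's quasi-likelihood test). Ccl2 (ENSMUSG00000035385) lies on chromosome 11 from 82035571 to 82037453, on coordinates of the deposited table that match GRCm38.

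Ccl8 (chromosome 11 from 82115185 to 82116799), encoding MCP-2, which also attracts monocytes, stands 77.7 kb from Ccl2 with no other row of the table between them. It had few reads, with raw counts of 34, 31 and 45 in WT against 0, 3 and 12 in Sirt6 cKO samples. The count of 0 allows up to 3 counts at this depth. The highest Sirt6 cKO sample was below the lowest WT sample, with a log2 fold change of -2.93 (SE 0.73, adjusted p = 0.0109, edgeR's quasi-likelihood test). From the summed counts, WT was 7.78-fold higher, with a 95% exact interval of 4.52 to 14.4 that covers counting error only.

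Cxcl10, an interferon-induced chemokine that attracts T cells, had raw counts of 45, 47 and 54 in WT against 13, 6 and 8 in Sirt6 cKO samples. The groups did not overlap. Its log2 fold change was -2.51 (SE 0.40, adjusted p = 0.00131, edgeR's quasi-likelihood test), and from summed counts WT was 5.73-fold higher (95% exact interval 3.78 to 8.996). Its span overlaps that of the gene Art3 in the annotation, and the strand setting of the counting is not given in the sources used here.

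The neutrophil attractants behaved otherwise. Cxcl1, known as KC, had normalized counts of 2346, 2044 and 2055 in WT against 1377, 965 and 2439 in Sirt6 cKO samples. Replicates 1 and 2 of Sirt6 cKO were below every WT sample and replicate 3 was above every one, so the groups overlapped (log2 fold change -0.43, 95% interval -1.09 to 0.23, adjusted p = 0.251 in edgeR's test). Without Sirt6 cKO replicate 3 the value was -0.86, with an adjusted p of 0.0139. Cxcl5, which lies 129.6 kb from Cxcl1 on chromosome 5, had mean normalized counts of 2145 ± 98.8 (SD, n = 3) in WT against 2143 ± 566 in Sirt6 cKO samples, with a 95% interval of the log2 fold change of -0.43 to 0.43. A 2-fold difference of Cxcl5 in either direction lies outside that interval.

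Of the other chemokines, Ccl5, the T-cell attractant RANTES, had raw counts of 31, 20 and 42 in WT against 2, 6 and 31 in Sirt6 cKO samples. Sirt6 cKO replicate 3 was inside the WT range and the other Sirt6 cKO replicates were below it. Its log2 fold change of -1.34 did not pass (adjusted p = 0.170). It was -2.99 without Sirt6 cKO replicate 3 (adjusted p = 0.0145) and -1.63 with the replicate number as a block (adjusted p = 0.0427), both from edgeR's test. Cx3cl1, the membrane-anchored chemokine fractalkine, had 529 to 614 normalized counts in WT and 653 to 729 in Sirt6 cKO samples. The groups did not overlap, but the log2 fold change of 0.27 did not pass (adjusted p = 0.143), and passed without WT replicate 1 at 0.33 (adjusted p = 0.0471). Its neighbour on chromosome 8, Ccl17, was the 1 gene left out by the filter on low counts, with 10, 7 and 10 raw counts in WT against 5, 10 and 8 in Sirt6 cKO samples.

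**Figure D2:**
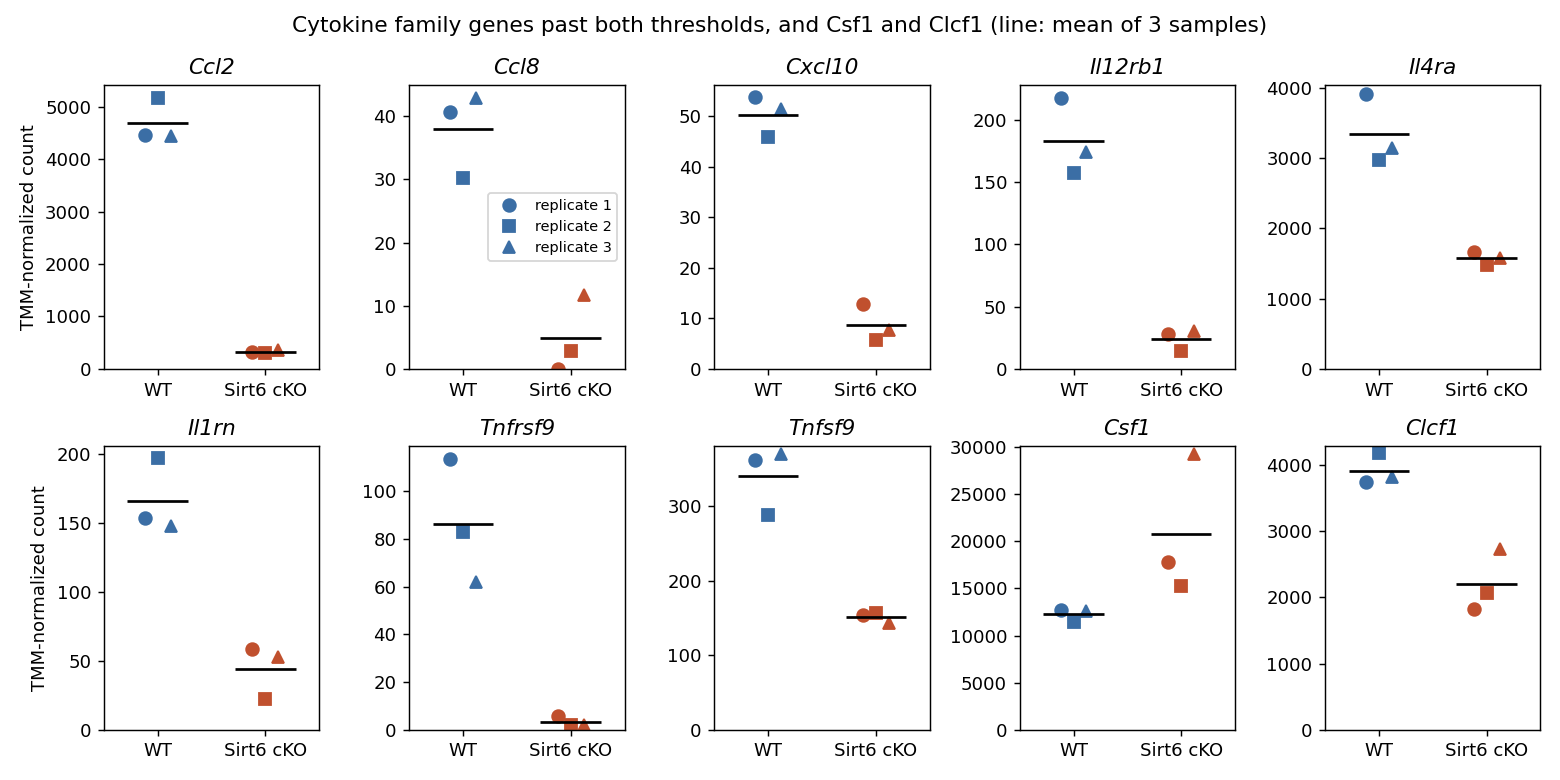
TMM-normalized counts in each of the 3 WT (blue) and 3 Sirt6 cKO (orange) samples for the 8 genes past both thresholds and for Csf1 and Clcf1, with marker shape for the replicate number, a line for the mean, and axes that start at 0. In all 10 panels the genotypes do not overlap, and Sirt6 cKO replicate 3 of Csf1 stands well above the other Sirt6 cKO replicates, at 29270 against 15270 and 17790.

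Among interleukin receptors, Il12rb1 (ENSMUSG00000000791), the shared beta 1 chain of the receptors for IL-12 and IL-23, had raw counts of 182, 161 and 183 in WT against 28, 15 and 31 in Sirt6 cKO samples. The genotypes were far apart, with a log2 fold change of -2.92 (SE 0.32, adjusted p = 0.000190, edgeR's quasi-likelihood test), a 7.61-fold lower mean normalized count. Il4ra, the alpha chain that binds IL-4 and is shared with the IL-13 receptor, was expressed at a higher level and varied little in Sirt6 cKO samples. Its normalized counts were 3920, 2970 and 3141 in WT against 1660, 1481 and 1576 in Sirt6 cKO, a 2.13-fold lower mean with a log2 fold change of -1.09 (SE 0.15, adjusted p = 0.000599, same edgeR test). Without WT replicate 1 the log2 fold change of Il4ra was -0.96, which is short of the threshold of fold, and 7 genes were then called lower.

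Il13ra1, which pairs with Il4ra in the type II IL-4 receptor, was at a log2 fold change of 0.12 with a 95% interval of -0.40 to 0.64 (adjusted p = 0.697). Il17ra and Il17rc, the chains of the IL-17 receptor, had log2 fold changes of 0.37 (adjusted p = 0.141) and 0.01 (adjusted p = 0.962). Il17rc was higher in WT replicate 1 than in the other WT samples, and passed without that sample at a log2 fold change of 0.30 (adjusted p = 0.0193). Il18rap, the accessory chain of the IL-18 receptor, had a value of 0.19 (adjusted p = 0.529). Its neighbour on chromosome 1, Il1rl1, encodes the IL-33 receptor ST2 and held 8046, 11320 and 10500 normalized counts in WT against 6877, 7032 and 7629 in Sirt6 cKO samples. All Sirt6 cKO samples lay below WT, at a log2 fold change of -0.47 (adjusted p = 0.0305). This did not pass without any 1 of WT replicates 2 and 3 and the 3 Sirt6 cKO replicates, where it lay between -0.50 and -0.36 with adjusted p between 0.0553 and 0.124 in edgeR's test. These 2 genes were the closest to a limit of the usable rows, 89 and 90 rows away.

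Il1rn encodes the IL-1 receptor antagonist, a secreted protein that blocks IL-1 at its receptor, and was the 1 soluble inhibitor that could be described. It held 128, 202 and 155 raw counts in WT against 59, 23 and 54 in Sirt6 cKO samples. The groups did not overlap, and the mean was 3.75-fold lower in Sirt6 cKO chondrocytes, with a log2 fold change of -1.91 (SE 0.35, adjusted p = 0.00270, edgeR's quasi-likelihood test). The interleukins themselves were represented by Il16, a T-cell attractant, and Il34, a ligand of the CSF-1 receptor. Il16 had 403 to 513 normalized counts in WT and 449 to 706 in Sirt6 cKO samples (log2 fold change 0.34, adjusted p = 0.183). Il34 had 853 to 1223 in WT and 608 to 765 in Sirt6 cKO samples, at a log2 fold change of -0.57 (adjusted p = 0.0270) that did not pass without Sirt6 cKO replicate 1 (-0.55, adjusted p = 0.0878) or replicate 2 (-0.49, adjusted p = 0.102).

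Csf1 encodes macrophage colony-stimulating factor, the other ligand of the receptor that binds IL-34. It held the most reads of the 31 genes, with normalized counts of 12680, 11470 and 12640 in WT against 17790, 15270 and 29270 in Sirt6 cKO samples. Every Sirt6 cKO sample was above every WT sample, and replicate 3 was well above the other Sirt6 cKO replicates. The log2 fold change was 0.76 (SE 0.23, adjusted p = 0.0226, edgeR's quasi-likelihood test). It was 0.45 without Sirt6 cKO replicate 3, where it still passed, and 0.72 without WT replicate 2, where it did not (adjusted p = 0.0503). Csf1 took 18.9% to 21.0% of the reads on the 31 genes in WT and 30.9% to 41.3% in Sirt6 cKO samples. The 2 ligands of the CSF-1 receptor thus had log2 fold changes of opposite sign. Both were short of 2-fold, and neither passed the adjusted p in every fit. The receptor gene Csf1r was not analysed here.

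Of the macrophage and monocyte markers, 2 of a list of 16 could be used. Cd68 had 41, 50 and 46 raw counts in WT against 6, 52 and 43 in Sirt6 cKO samples, and Cd163 had 16, 5 and 4 in WT against 80, 58 and 81 in Sirt6 cKO samples. Their summed normalized counts were 47.6 to 68.2 in WT and 84.8 to 121 in Sirt6 cKO samples, and neither was at 0. The 2 markers went apart, since Cd163 was called higher (log2 fold change 2.99, adjusted p = 0.00248 in edgeR's test) and Cd68 was not called (-0.53, adjusted p = 0.473). No marker on the lists for osteoclasts, T and NK cells, B cells, neutrophils, mast cells or endothelial cells was analysed. The 7 synovial fibroblast markers that could be used, of a list of 9, summed to 135200 to 137200 normalized counts in WT. In Sirt6 cKO samples they summed to 355500 to 403700. Col1a1, Dcn, Pdgfra and Lum were called higher and none lower. Pdpn (log2 fold change -0.36), Has1 (-0.26) and Thy1 (0.09) were not called. Most of the sum in both genotypes was Col1a1, with a mean of 116100 normalized counts in WT and 293000 in Sirt6 cKO samples. The part of these cell types in the results on chemokines, receptors and Csf1 was not tested.

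The gp130 family signals through a shared receptor chain. Clcf1 encodes cardiotrophin-like cytokine, a ligand of the ciliary neurotrophic factor receptor. Clcf1 had normalized counts of 3753, 4179 and 3825 in WT against 1822, 2067 and 2728 in Sirt6 cKO samples, a log2 fold change of -0.83 (SE 0.17, adjusted p = 0.00421, edgeR's quasi-likelihood test). The groups did not overlap, and Clcf1 stayed past an adjusted p of 0.05 under each of the 15 other fits. Mean Clcf1 was 3919 ± 228 in WT against 2206 ± 469 in Sirt6 cKO (SD, n = 3 each). Il11, another ligand of the family, had 84, 155 and 146 raw counts in WT against 71, 79 and 125 in Sirt6 cKO samples, and its log2 fold change of -0.55 did not pass (adjusted p = 0.146).

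Tnfrsf9 and Tnfsf9 encode a receptor and its ligand, known as 4-1BB and 4-1BB ligand, a co-stimulatory pair of T cells. Both were called lower. Tnfrsf9 (ENSMUSG00000028965) had the largest fold decrease of the 31 genes, with 95, 85 and 65 raw counts in WT against 6, 2 and 2 in Sirt6 cKO samples. Its log2 fold change was -4.67 (SE 0.50, adjusted p = 0.000179, edgeR's quasi-likelihood test), and from summed counts WT was 25.98-fold higher (95% exact interval 13.9 to 54.9, counting error only). Tnfsf9 held 303, 296 and 389 raw counts in WT against 156, 163 and 148 in Sirt6 cKO samples. Its mean was 2.25-fold lower with a log2 fold change of -1.17 (SE 0.18, adjusted p = 0.00110, same edgeR test). No marker that defines T cells was analysed.

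The main TNF receptors did not pass. Tnfrsf1a, the ubiquitous receptor TNFR1, had the highest level per kb of the receptors in WT, with 5974 to 7679 normalized counts in WT and 4404 to 5815 in Sirt6 cKO samples. The groups did not overlap, and the log2 fold change of -0.41 had an adjusted p of 0.0648, which was 0.0393 at -0.52 without Sirt6 cKO replicate 3 (edgeR's test). Tnfrsf1b, TNFR2, was at a log2 fold change of -0.09 with a 95% interval of -0.42 to 0.23. Tnfrsf22, a decoy receptor for TRAIL, was lower at a log2 fold change of -0.76 (adjusted p = 0.00562), with 1014 to 1323 normalized counts in WT and 630 to 807 in Sirt6 cKO samples. Tnfrsf26, its tandem neighbour 6.96 kb away on chromosome 7, had 69 to 81 raw counts in WT and 32 to 77 in Sirt6 cKO samples (log2 fold change -0.59, adjusted p = 0.206). The 2 genes are related in sequence, so reads may have been split between them. Tnfrsf4, the T-cell receptor OX40, had 14, 30 and 20 raw counts in WT against 42, 44 and 26 in Sirt6 cKO samples (log2 fold change 0.73, adjusted p = 0.149).

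Crlf2, a chain of the receptor for thymic stromal lymphopoietin, and Crlf3, a cytokine receptor-like factor, had log2 fold changes of 0.04 (95% interval -0.42 to 0.49) and -0.18 (95% interval -0.47 to 0.12). Crlf2 was highest in WT replicate 1, at 1623 normalized counts against 1030 and 996 in the other WT samples, and its log2 fold change was 0.30 without that sample (adjusted p = 0.0399).

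Levels of different genes were compared as normalized counts per kb of exon. In WT the order began with Ccl2 at a mean of 4123 per kb, whose lowest sample at 3900 was above the highest sample of the next gene. Tnfrsf1a (2538 per kb), Csf1 (2331) and Cxcl1 (2254) followed, and each of these overlapped its neighbour in the order. In Sirt6 cKO samples Csf1 was first at 3949 per kb, and Ccl2 fell from rank 1 to rank 15 at 285. The lowest level in Sirt6 cKO was that of Tnfrsf9, at 1.20 per kb. The median level of the 31 genes was 226 per kb over all samples, below the median of 310 per kb over all 11659 rows. The genes called lower were spread over the range, from Ccl2 at the 91.8 percentile of all rows to Tnfrsf9 at the 5.68 percentile.

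**Figure D3:**
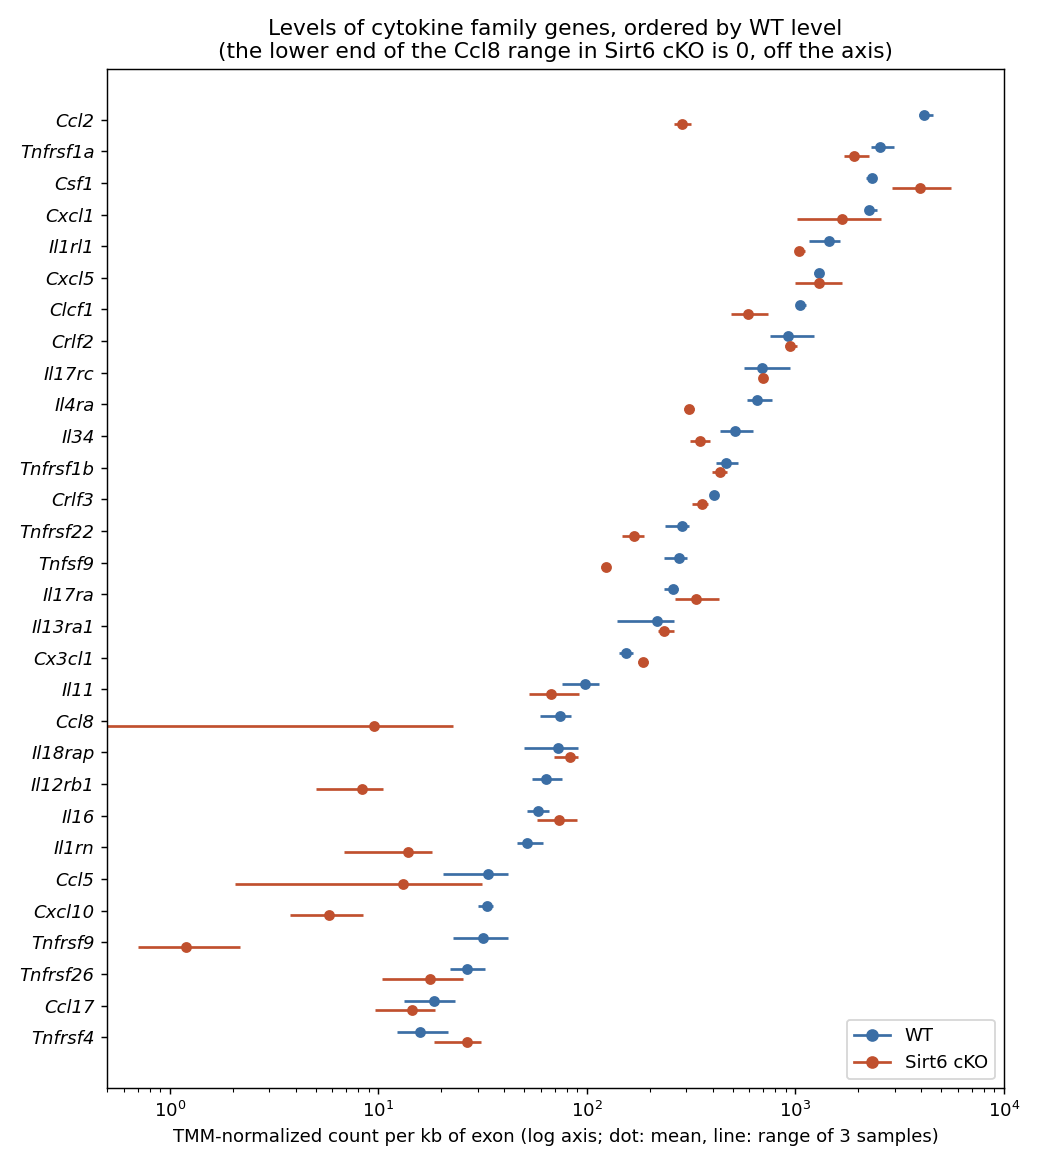
TMM-normalized count per kb of exon on a log axis for the cytokine family genes described here in order of their WT level, with the mean as a dot and the range of the 3 samples as a line, for WT in blue and Sirt6 cKO in orange. Ccl2 stands first in WT at 4123 per kb and at 285 in Sirt6 cKO, and Csf1 is the highest gene in Sirt6 cKO at 3949.

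Within the Sirt6 cKO group, replicate 3 was the highest sample for 20 of the 30 tested genes, 66.7%, against 39.8% of all tested genes. The difference between replicate 3 and the mean of replicates 1 and 2 had a median of 0.21 on the log2 scale over the 30 genes and of -0.01 over all tested genes. It was largest for Ccl5 (1.29), Cxcl1 (1.07), Csf1 (0.83), Ccl8 (0.73), Il11 (0.64), Il17ra (0.59) and Cxcl5 (0.59). Tnfrsf26 (-0.75), Tnfrsf4 (-0.50) and Il16 (-0.49) went the other way. Reads on the 31 genes summed to 2040 to 2130 CPM, the count scaled to library size, in WT, to 1890 and 1760 CPM in Sirt6 cKO replicates 1 and 2 and to 2490 CPM in Sirt6 cKO replicate 3. Without replicate 3, 9 genes were called lower, which were the 8 above and Ccl5, and none was called higher. In WT, replicate 1 was the lowest sample for 26.7% of the 30 genes, against 40.2% of all tested genes.

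**Figure D4:**
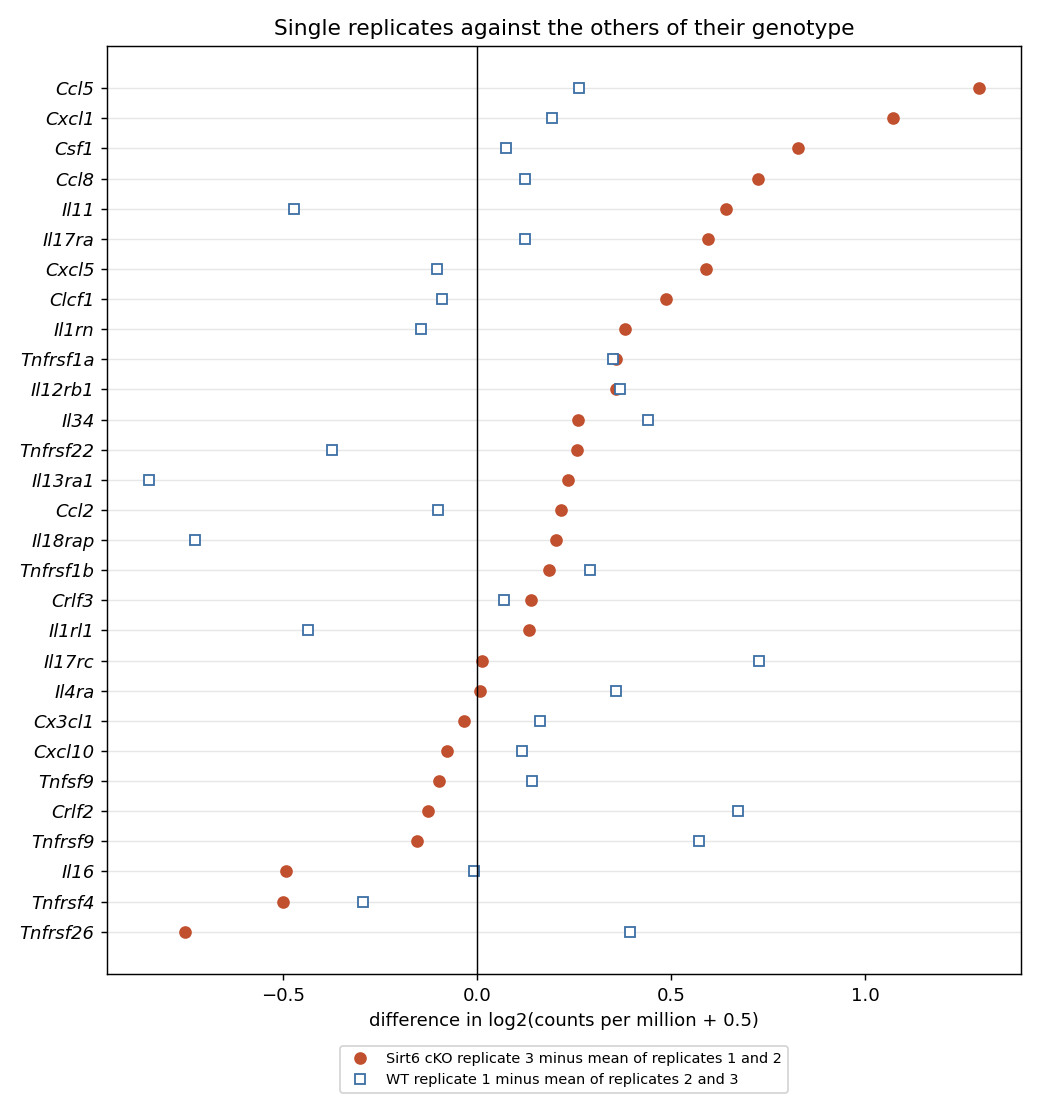
Difference in log2(CPM + 0.5) between Sirt6 cKO replicate 3 and the mean of the other Sirt6 cKO replicates (orange dots), and between WT replicate 1 and the mean of the other WT replicates (open blue squares), for the tested genes described here. Most orange dots lie right of 0, led by Ccl5 at 1.29 and Cxcl1 at 1.07, and the blue squares lie on both sides.

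Some of the genes are neighbours. Ccl2 and Ccl8 were both called lower. Tnfrsf26 and Tnfrsf22 had log2 fold changes of -0.59 and -0.76. Il1rl1 and Il18rap, 49.9 kb apart, had -0.47 and 0.19, and Cxcl5 and Cxcl1 had -0.00 and -0.43.

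Genes that act below these receptors or release their ligands were taken from a list of 74 Janus kinase, STAT, SOCS, TRAF, IRAK, arrestin and shedding genes, of which 43 could be used and all were tested. Of the 43, 5 were called higher and 3 lower. These are 11.6% and 6.98%, against 8.72% and 7.15% of all tested genes, so both shares are near the background. The list was chosen with earlier results of these data known. Called higher were Jak3, Rhbdf2, Cish, Tnfaip3 and Tab2, and called lower were Rgs16, Ptpn6 and Arrb1. The median log2 fold change of the list was 0.10. Jak3 is the kinase of receptors with the common gamma chain, Cish a STAT5-induced inhibitor, and their log2 fold changes were 4.93 and 1.94.

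Rhbdf2 encodes iRhom2, a partner of the protease ADAM17 that releases TNF from the membrane. It had 25, 22 and 27 raw counts in WT against 291, 296 and 262 in Sirt6 cKO samples, a log2 fold change of 3.42 (SE 0.23, adjusted p = 1.51e-05, edgeR's quasi-likelihood test). Its paralog Rhbdf1 had a value of -0.05 (adjusted p = 0.795). Tnfaip3, which encodes the NF-kB inhibitor A20, had 108, 130 and 113 raw counts in WT against 268, 256 and 415 in Sirt6 cKO samples (log2 fold change 1.33, adjusted p = 0.00232). Tab2, an adaptor of the kinase TAK1, had 2443, 5284 and 5482 in WT against 8990, 8466 and 13798 in Sirt6 cKO samples (log2 fold change 1.19, adjusted p = 0.00639). WT replicate 1 was low for Tab2, whose log2 fold change was 0.97 without it and 0.95 without Sirt6 cKO replicate 3, both short of a 2-fold difference.

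Rgs16, a regulator that switches off chemokine receptor signaling, had 297, 271 and 394 raw counts in WT against 41, 16 and 7 in Sirt6 cKO samples. Its log2 fold change was -3.99 (SE 0.48, adjusted p = 0.000330, edgeR's quasi-likelihood test). With 1 sample left out it lay between -4.89, without Sirt6 cKO replicate 1, and -3.56, without Sirt6 cKO replicate 3. Rgs16 was called lower each time. Ptpn6, the phosphatase SHP-1 of blood cells, had 58, 77 and 82 in WT against 20, 16 and 8 in Sirt6 cKO samples (log2 fold change -2.37, adjusted p = 0.00127). Arrb1, a beta-arrestin, was at a log2 fold change of -1.25 (adjusted p = 0.000382). Myd88 (0.11, adjusted p = 0.540), Traf2 (0.11, adjusted p = 0.631) and Tyk2 (-0.01, adjusted p = 0.960) did not pass. At the adjusted p alone 13 genes of the list were higher and 10 lower, 30.2% and 23.3%, against 22.5% and 24.3% of all tested genes.

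**Figure D5:**
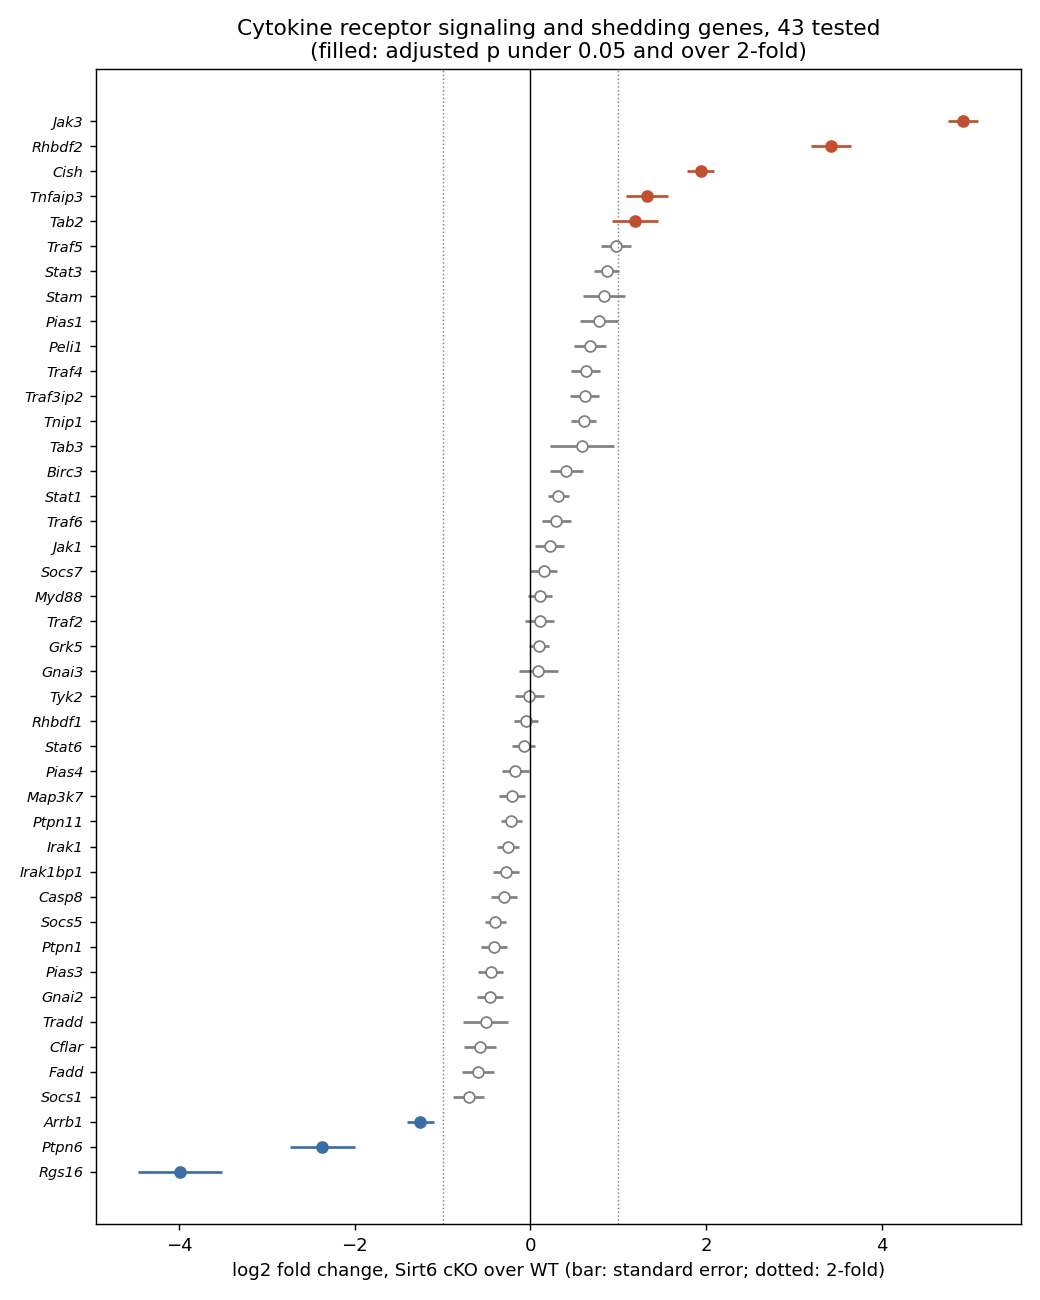
Log2 fold change (Sirt6 cKO over WT) with its standard error for the 43 tested signaling and shedding genes in order of the value, with the 5 genes called higher in orange, the 3 called lower in blue and the others open. Jak3 and Rhbdf2 lead on the right at 4.93 and 3.42, and Rgs16 is farthest to the left at -3.99.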

How the data were processed

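RNA of 3 WT and 3 Sirt6 cKO chondrocyte samples was analysed. The deposited file is 1 table of raw counts, with exon positions and summed exon length for each Ensembl identifier, and its values are whole numbers that the authors left without normalization. Per the labels, the submitters' processing notes name cutadapt, HISAT2 2.0.5, StringTie and the build hg19, although identifiers and positions in the table are mouse. The counter and its strand setting are not given in the sources used here. Rows were named by position against RefSeq GRCm38.p6 at a shared span of 0.5 or more, which named 10609 of 11659 rows. Only rows with identifier numbers 1 to 20900 or 25770 to 48200 in identifier order were used for the genes described (6621 rows). There, the exon length and count of a row were correlated over genes (Spearman's rho 0.250 and 0.295), against at most 0.041 for counts 1 to 5 rows away. The edgeR fit used the whole table.

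The test was glmQLFTest of edgeR 4.0.16 (R 4.3.3) after TMM, filterByExpr and glmQLFit. Genotype was the sole term, and the fit was tested on simulated data. The SE was derived from the log2 fold change and the square root of its F statistic. Normalized counts are counts divided by the effective library size and multiplied by its mean. Replicate-wise log2 values had 0.5 added to the CPM. Intervals on summed counts are exact binomial. The genes and lists were chosen with earlier results of these data known. Genes were named where they passed an adjusted p of 0.05, were the 2 highest of their role per kb, were Ccl2, partnered a gene that passed, or failed the filter. This gave 23 genes, and the other 8 were added after their values were seen to account for the set. Of the 31 genes, 1 is in the counts but is not reported here. The spans of 10 of the 31 genes overlap another annotated gene. Deviations from the genotype mean were positively correlated between samples of equal number (correlations across genes of 0.332, 0.114 and 0.167), so the number, taken from the sample titles, was also used as a block. The sources do not say what a number marks. The study speaks of chondrocytes of 3 control and 3 knockout mice, and whether each sample is 1 animal is not stated further.

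Alternatives were DESeq2 1.42.0, RLE factors, upper-quartile and total-count scaling, no filter, a minimum of 10 counts throughout, limma-voom (limma 3.58.1), the replicate block, leaving out each sample, only the rows within the identifier ranges, no fold threshold, and an adjusted p under 0.01. Names from Ensembl cross-references could not be tried, since none were in the RefSeq table used.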

Additional observations from a re-analysis of the deposited data

How the results depend on the processing

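By adjusted p alone, 2 genes were higher and 12 were lower, and in the signaling list 13 and 10. A minimum of 10 counts throughout drops genes near 0 in Sirt6 cKO. Under it 5 of 26 tested genes were lower (Ccl2, Il12rb1, Il4ra, Il1rn and Tnfsf9), against 745 of 10817 genes. In the signaling list 1 gene was lower. Leaving out 1 sample gave 7 to 9 lower and 0 to 0 higher cytokine family genes. In the signaling list it gave 4 to 6 higher and 3 to 3 lower genes. Over all genes, 735 to 910 were lower and 951 to 1167 higher in these fits, of 11291 to 11303 tested. The replicate block gave 9 lower genes, with the 8 of the fit without it among them and Ccl5 added, and 0 higher. Over all 11246 tested genes the block gave 798 lower and 1071 higher. In the signaling list it gave 5 higher and 3 lower, and it changed no call other than Ccl5. An adjusted p under 0.01 left out Ccl8 and gave 7.

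Single-gene values were compared under 15 other fits. Of 446 such values, 429 kept their side of an adjusted p of 0.05, 10 no longer passed and 7 passed newly. The sign differed in 18 values of 6 genes (Cxcl5, Crlf2, Il17rc, Il13ra1, Il18rap and Tnfrsf1b), of which 0 passed in either fit. The values that no longer passed were those of Il1rl1, Il34 and Csf1, and Il1rl1 also did not pass with upper-quartile (-0.39) or total-count scaling (-0.43). The log2 fold change lay between -3.92 and -3.77 for Ccl2, -5.39 and -4.40 for Tnfrsf9, -4.57 and -2.36 for Ccl8, -2.87 and -2.28 for Cxcl10, -3.10 and -2.66 for Il12rb1, -2.15 and -1.58 for Il1rn and -1.26 and -1.09 for Tnfsf9. The median over all genes moved by at most 0.08 between scalings. Over all genes, 55.0% of the calls were higher with TMM and 63.5% with upper-quartile normalization. Few reads on Ccl8, Cxcl10, Ccl5 and Tnfrsf9 limit the precision of their values.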
